A study of Mus musculus with 21 samples.

Results

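The miRNAs described here are 7 mature miRNAs encoded inside the mouse Hox clusters, namely mmu-miR-10a-5p, mmu-miR-10a-3p, mmu-miR-10b-5p, mmu-miR-10b-3p, mmu-miR-196a-5p, mmu-miR-196b-5p and mmu-miR-615-3p, written below without the species prefix. They were chosen by name, and 6 of the 7 matched one of the 1647 miRNAs counted. miR-196a-5p was not analysed here. Small RNA was sequenced in 21 libraries from untreated wild-type mice, C57BL/6JOlaHsd for the cochlea and C57Bl6/J for the SOC. The cochlea, dissected as inner ear sensory epithelium, had 2 libraries from embryonic day 16 (E16), 4 from the day of birth (P0) and 4 from postnatal day 16 (P16). The superior olivary complex (SOC), a group of auditory nuclei in the brainstem, had 4, 4 and 3 libraries from these stages. Each sample pooled tissue from several animals.

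Cochlear and SOC RNA were isolated with different kits, and the libraries of each organ were made with a different small RNA kit. Organ and kit therefore cannot be told apart, and stages were compared within each organ. Total counts ranged from 124400 to 447419 in the cochlea (median 196885) and from 8309669 to 18053698 in the SOC (median 11706138). Levels are given as CPM, counts scaled to a common library size, after TMM normalization over the libraries of an organ. A single count was worth 1.74 to 7.78 CPM in a cochlea library and 0.0452 to 0.116 CPM in a SOC library, so levels of a few CPM could be measured in the SOC and not in the cochlea. For a miRNA with no count, 3 counts are taken as the upper limit. Such limits, and the intervals given below, cover counting error only.

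Hox genes give cells along the body axis their position, and the order of the genes in a cluster matches the order of their domains along that axis. miRNA genes lie between and inside the Hox genes and share their domains in part. miR-10 genes sit near the Hox4 genes, which are active in the posterior hindbrain and spinal cord. miR-196 genes sit near the Hox9 and Hox10 genes of the trunk, and miR-196 directs the cleavage of Hoxb8 mRNA. The SOC arises from the hindbrain, whereas the sensory epithelium of the cochlea arises from the otic placode.

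The mature sequences are shown because the arms that changed together are nearly identical in part and come from different chromosomes. A sequence was found for 7 of 7 members in RefSeq (GRCm38.p6). They are written 5′ to 3′ with the seed, bases 2 to 8, in capitals.
miR-10a-5p: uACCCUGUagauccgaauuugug
miR-10b-5p: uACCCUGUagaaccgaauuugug
miR-10a-3p: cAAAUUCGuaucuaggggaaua
miR-10b-3p: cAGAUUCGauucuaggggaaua
miR-196a-5p: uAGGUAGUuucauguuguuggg
miR-196b-5p: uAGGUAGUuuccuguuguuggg
miR-615-3p: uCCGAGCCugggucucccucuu

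miR-10a-5p and miR-10b-5p share their seed and differ at 1 base, U12A, counted from the 5′ end with the base of miR-10a-5p first. The 3p arms differ at 3 bases, A3G, U9A and A10U, the first of them inside the seed, so the 3p arms have different seeds. miR-196a-5p and miR-196b-5p share a seed and differ by A12C. No other of the 1679 mature miRNAs in the reference has the seed of miR-615-3p, and its nearest relative differs at 9 positions. How reads that match both miR-10 5p arms were assigned is not given in the sources used here, so the split between these 2 miRNAs is uncertain, whereas the 3p arms are easier to tell apart.

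The miR-10 hairpins are shown with both mature arms in capitals, since both arms of each hairpin were counted in the SOC.
Mir10a: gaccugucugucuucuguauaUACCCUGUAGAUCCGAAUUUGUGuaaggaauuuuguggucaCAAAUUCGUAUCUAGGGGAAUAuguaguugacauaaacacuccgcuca
Mir10b: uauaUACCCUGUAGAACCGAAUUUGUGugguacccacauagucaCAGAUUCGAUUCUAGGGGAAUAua

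In GRCm38, Mir10a lies at chr11:96317165-96317274 on the plus strand, between Hoxb5 and Hoxb4 and 992 bases from the nearer gene, Hoxb4. Mir10b lies at chr2:74726070-74726137 on the plus strand, within the spans of Hoxd3 and Hoxd4 in GENCODE and outside their exons. Mir615 lies at chr15:103014926-103014990, as the span of its mature arms, within the span of Hoxc5 and outside its exons. Mir196b lies at chr6:52230081-52230165 on the minus strand and overlaps an annotated exon of Hoxa9. miR-196a-5p comes from a pair of genes, Mir196a-1 at chr11:96265164-96265265 between Hoxb13 and Hoxb9, and Mir196a-2 at chr15:102973350-102973434 between Hoxc10 and Hoxc9, within the span of Hoxc5 and outside its exons.

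Counts of 2 other miRNAs split the SOC libraries into 3 sets, and no label names a batch. The sets follow the stages in part. Set A has no P16 library, set C has no E16 library, and only set B holds every stage. This grouping was made with the counts in view. Set A, E16 replicates 2 and 3 and P0 replicates 2 and 3, had 17.2% to 19.6% of its counts on miR-99b-5p. Set C, P0 replicate 4 and P16 replicates 2 and 3, had 0.277% to 0.322% on miR-191-5p, where the other SOC libraries had at least 3.84%. Set B held E16 replicates 1 and 4, P0 replicate 1 and P16 replicate 1. The fold changes of the members in the SOC are therefore given also with the set as a covariate and within sets. The 5p shares, the ratio and the marker lists were not tested with the set.

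The labelled tissues were checked against lists of cell type miRNAs. In the SOC, labelled as neuronal, miR-9-5p led the neuronal list with a mean of 55140 CPM, and every neuronal miRNA was counted. By stage its mean was 68975 CPM at E16, 69877 at P0 and 17044 at P16. The mesenchymal miR-143-3p had means of 19018, 16449 and 21584 CPM, so at P16 its mean was above that of miR-9-5p. The P16 libraries ranged from 7687 to 34475 CPM for miR-9-5p and from 18615 to 25315 CPM for miR-143-3p. By summed level the lists stood the other way at P16. The neuronal list had 26784 to 43823 CPM and the mesenchymal list 18662 to 25372 CPM. In the cochlea, miR-429-3p led the epithelial list with a mean of 5735 CPM over the 10 libraries. The mesenchymal miR-214-3p (38188 CPM) was above it in 10 of 10 libraries. The cartilage miR-455-3p (20917 CPM) was above miR-429-3p in all 8 libraries of P0 and P16 and in none of E16. By the edgeR calls defined below, the 4 tested cartilage miRNAs were mixed at P0 vs E16. There miR-455-3p rose, and miR-140-3p and miR-140-5p fell. In the list 1 rose and 0 fell at P16 vs E16, and 2 rose and 0 fell at P16 vs P0. The blood miR-150-5p (6938 CPM) was above miR-429-3p in 4 of 4 libraries at P16, 1 of 4 at P0 and 0 of 2 at E16. Other blood miRNAs did not follow it. Of the 4 tested, 1 rose (miR-150-5p) and 3 fell at P0 vs E16, and 1 rose and 2 fell at P16 vs E16. At P16 vs P0, 2 rose and 0 fell. Of all 896 miRNAs tested in the cochlea, 70 rose and 149 fell at P0 vs E16, 98 and 167 at P16 vs E16, and 35 and 59 at P16 vs P0. In bulk tissue, fewer cells of a type and less RNA per cell cannot be told apart.

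In the SOC, all 4 miR-10 arms were highest at P0 and lowest at P16 by their stage means. By the fit of stage alone, the fall from P0 to P16 was 10.53-fold to 16.8-fold and left no overlap between the stages for any arm. By the criteria given below, which include the lack of overlap, all 4 arms were called lower, where 8.07% of all tested miRNAs were. Within library set B, with 1 library at each of these stages, the log2 differences were smaller, -2.65 to -1.27. miR-615-3p did not follow the course of the miR-10 arms, and miR-196b-5p had no count in the SOC. The levels were low throughout. Over the 11 SOC libraries, miR-615-3p had the highest mean of the members, 18.9 CPM, and ranked 299 of the 1647 miRNAs. This order differed by stage, and at P0 the means of miR-10a-3p and miR-10b-5p were above that of miR-615-3p.

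miR-10a-5p, the 5p arm of the HoxB hairpin, measured 2.23, 6.33, 5.40 and 2.08 CPM in E16 replicates 1 to 4. At P0 it measured 8.27, 16.8, 19.3 and 29.5 CPM, and at P16 1.32, 1.06 and 0.957 CPM in replicates 1 to 3. Every P0 library lay above every E16 library, and every P16 library lay below all others. The stage means with SD were 4.01 ± 2.17 (n = 4), 18.5 ± 8.75 (n = 4) and 1.11 ± 0.185 CPM (n = 3), from 198, 865 and 34 counts.

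miR-10a-3p, the other arm of the same hairpin, measured 5.16, 12.2, 8.49 and 7.99 CPM in the E16 libraries. It measured 11.1, 21.1, 29.5 and 62.1 CPM at P0 and 2.73, 3.18 and 2.87 CPM at P16. P0 replicate 1 lay below E16 replicate 2, so these stages overlapped, whereas P16 was below every other library. The means were 8.46 ± 2.89 CPM (n = 4), 31.0 ± 22.1 (n = 4) and 2.93 ± 0.231 (n = 3).

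miR-10b-5p, from the HoxD hairpin, measured 3.69, 9.18, 10.5 and 1.48 CPM at E16 and 8.36, 22.5, 31.3 and 30.9 CPM at P0. At P16 it measured 1.505, 1.48 and 1.15 CPM. E16 replicate 4 lay within the P16 range, and P0 replicate 1 lay within the E16 range. The means were 6.21 ± 4.32 CPM (n = 4), 23.3 ± 10.7 (n = 4) and 1.38 ± 0.200 (n = 3).

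miR-10b-3p was the least abundant of the 4 arms, with 2.70, 3.70, 3.10 and 2.00 CPM at E16, 2.49, 4.17, 14.7 and 13.6 CPM at P0, and 1.03, 0.636 and 0.383 CPM at P16. The P16 values rest on 4 to 11 counts each. P0 replicates 2, 3 and 4 stood above all E16 libraries, replicate 2 by the least, whereas P0 replicate 1 lay within the E16 range. The means were 2.87 ± 0.716 CPM (n = 4), 8.75 ± 6.31 (n = 4) and 0.685 ± 0.329 (n = 3).

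**Figure D1:**
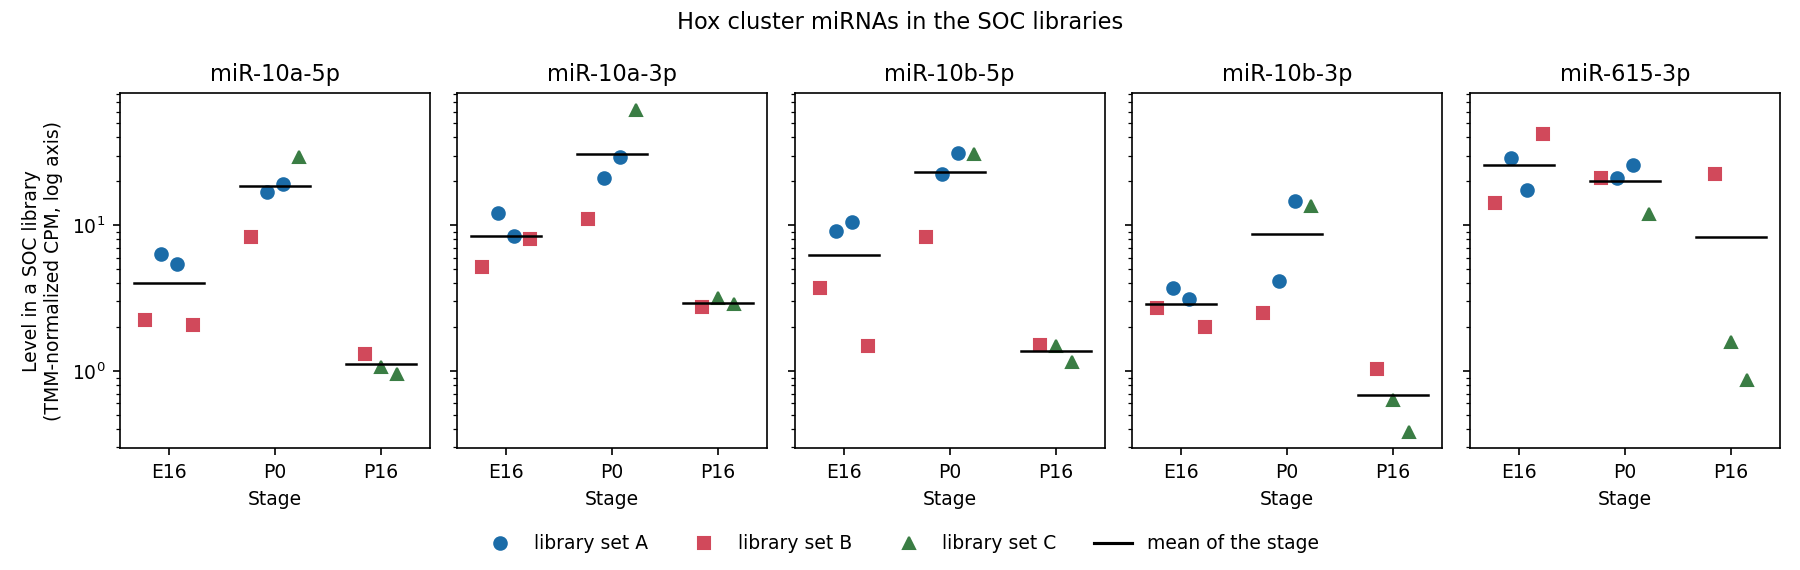
Level of each member in the SOC libraries by stage, in TMM-normalized CPM on a log axis, with 1 symbol per library, its shape and colour giving the library set, and a line at the stage mean. The miR-10 arms were lowest in all 3 P16 libraries, with miR-10b-5p at E16 replicate 4 (1.48 CPM) within that range, while miR-615-3p was low only in the P16 libraries of set C, at 1.59 and 0.861 CPM.

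Stages were compared with edgeR's quasi-likelihood F test over the 694 miRNAs that were over 1 CPM in 2 or more libraries of any one SOC stage. Of the 6 members counted, 5 passed this filter, and miR-196b-5p did not. A miRNA is called differentially expressed (DE) here where the Benjamini-Hochberg adjusted p (FDR) was under 0.05, the fold change was over 1.5 and the replicates of both stages were separate. As the members were chosen with earlier results known, their counts are set beside the share of all tested miRNAs called in the same direction. The 4 miR-10 arms come from 2 hairpins, and their levels correlated at r = 0.913 to 0.977 over the 11 SOC libraries. Their calls are therefore not independent, and the share is no test of the members.

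From E16 to P0, 1 of the 5 tested members was DE and higher, miR-10a-5p, where 2.45% of all tested miRNAs were. It rose 4.60-fold, or by 2.203 on the log2 scale with a standard error of 0.505 (FDR 0.0242). The log2 fold changes of the other arms were 1.87 for miR-10a-3p (FDR 0.0458, with overlap), 1.91 for miR-10b-5p (FDR 0.0763) and 1.60 for miR-10b-3p (FDR 0.119). miR-615-3p had -0.36 (FDR 0.845). The median over the 5 members was 1.87 and over all tested miRNAs 0.17.

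The call of miR-10a-5p at P0 rested on few libraries. It was lost without E16 replicate 1 (FDR 0.0764), E16 replicate 3 (0.0521), E16 replicate 4 (0.0536) or P0 replicate 3 (0.0529), with log2 fold changes of 1.93 to 2.37. Without P0 replicate 1, all 4 miR-10 arms were called by edgeR. With the library set as a covariate, miR-10a-5p had a log2 fold change of 1.97 (edgeR FDR 0.000909). The other arms then had 1.37 for miR-10a-3p (FDR 0.0110) and 1.76 for miR-10b-5p (FDR 0.00362), both with overlap, and 1.30 for miR-10b-3p (FDR 0.0828). Without the 4 libraries of set A, which left set B at E16 and 1 library each of sets B and C at P0, miR-10a-5p had 3.07 (FDR 0.269), and 0 of all 660 miRNAs tested were DE.

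Sets A and B held libraries of both E16 and P0, 2 and 2 in set A and 2 and 1 in set B. The log2 differences from E16 to P0 were 1.62 in set A and 1.94 in set B for miR-10a-5p. For miR-10a-3p they were 1.29 and 0.75, and for miR-10b-5p 1.45 and 1.69. Within both sets these 3 arms were thus higher at P0. miR-10b-3p had 1.47 in set A and 0.08 in set B, so its difference was seen in set A alone.

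Marker miRNAs of other tissues also differed between E16 and P0 in the SOC, where 29 of all 694 tested miRNAs fell and 17 rose. That total of 46 depends on single libraries and on the method. It was 23, 24, 23 and 25 without E16 replicate 1, 2 or 3 or P0 replicate 3, 84 by DESeq2 and 96 in the fit that held the library set. All 4 cartilage miRNAs fell, and their summed level went from 674 to 1305 CPM in the E16 libraries to 137 to 253 CPM at P0. Of the 4 tested epithelial miRNAs 3 fell, with sums of 926 to 1963 CPM at E16 and 56.2 to 195 CPM at P0, led by miR-205-5p. Of the 4 tested muscle miRNAs 2 fell, with sums of 140 to 346 CPM and then 11.05 to 27.2 CPM, led by miR-206-3p. No miRNA counted from these lists was at 0 in all SOC libraries. Of the 4 tested mesenchymal miRNAs 2 fell, although the list's sum, led by miR-143-3p, was 15780 to 24924 CPM at E16 and 13755 to 19226 CPM at P0. In the blood list miR-150-5p, 1 of 5, rose. Of the 6 neuronal and 3 oligodendrocyte miRNAs, edgeR called 0, with 1 and 0 at an unadjusted p under 0.05 and 1 and 0 by DESeq2. The part of these tissues in the change of miR-10a-5p was not tested.

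From P0 to P16, 4 of the 5 tested members were DE and lower, where 8.07% of all tested miRNAs were. These were the 4 miR-10 arms, whose calls are not independent. miR-10a-5p fell 16.5-fold (log2 fold change -4.04, standard error 0.629, FDR 0.00203). For miR-10b-5p the fall was 16.8-fold (-4.07, standard error 0.752, FDR 0.00515). The 3p arms fell less by their estimates, 10.53-fold for miR-10a-3p (-3.40, standard error 0.610, FDR 0.00493) and 12.5-fold for miR-10b-3p (-3.65, standard error 0.727, FDR 0.00655), with errors that overlap those of the 5p arms. The median over the 5 members was -3.65, against -0.15 over all tested miRNAs. All 4 arms remained DE with each SOC library left out in turn.

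In the fit that included the library set, the log2 fold changes from P0 to P16 were -3.82, -3.41, -3.59 and -3.44 for miR-10a-5p, miR-10a-3p, miR-10b-5p and miR-10b-3p, with an FDR of at most 0.00130 each. Within set C, with 1 library at P0 and 2 at P16, miR-10a-5p measured 29.5 and then 1.01 CPM, and the log2 differences of the 4 arms were -4.87 to -4.36. Set B, with 1 library at each of these stages, gave smaller differences of -2.65 for miR-10a-5p, -2.02 for miR-10a-3p, -2.47 for miR-10b-5p and -1.27 for miR-10b-3p. All 4 arms were thus lower at P16 within both sets, by amounts that differed between the sets. Without set A, 2 of the 4 arms were called, and miR-10a-3p had -3.61 (FDR 0.0631) and miR-10b-3p -3.47 (FDR 0.0978). In that setting 15 of all 660 tested miRNAs were DE, where 112 of 694 were with all SOC libraries. Without set C, a setting added after the data were seen, 1 library was left at P16, which the fit assumes to vary like those of the other stages. The 2 Mir10a arms were then called, miR-10b-5p had -3.60 (FDR 0.0647) and miR-10b-3p -2.60 (FDR 0.112), and 94 of all 637 tested miRNAs were DE.

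**Figure D2:**
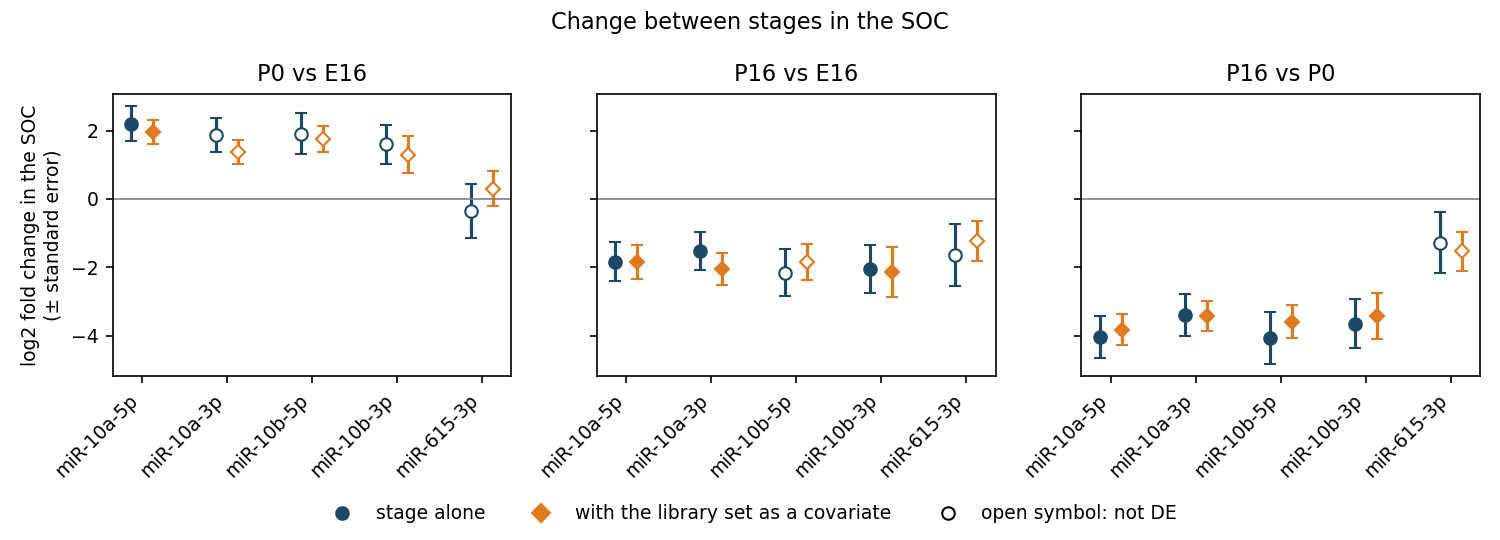
Log2 fold change of each member between stages in the SOC, with its standard error, from the fit of stage alone (circles) and from the fit that also holds the library set (diamonds). Filled symbols are DE. The 4 miR-10 arms lie between -4.07 and -3.40 at P16 vs P0 from stage alone, and miR-615-3p, with open symbols, at -1.28.

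Over the same interval 56 of all 694 tested miRNAs rose and 56 fell. The total of 112, and with it the share called, depends on single libraries. It was 248 without P0 replicate 4, 217 without P16 replicate 1, and 66 and 67 without P16 replicate 2 or 3. The 3 tested oligodendrocyte miRNAs all rose from P0 to P16, and their summed level went from 221 to 475 CPM to 3600 to 9117 CPM, led by miR-219a-2-3p. Of the 6 neuronal miRNAs 1 fell, miR-137-3p, and the list's sum was 53496 to 110301 CPM at P0 and 26784 to 43823 CPM at P16. Among the 5 tested blood miRNAs miR-150-5p rose, and the sums were 183 to 367 CPM and then 812 to 900 CPM. Of the 4 tested epithelial, 4 muscle, 4 mesenchymal and 4 cartilage miRNAs, edgeR called 0 between P0 and P16, with 2, 1, 0 and 1 at an unadjusted p under 0.05 and 0 in each list by DESeq2. The part of oligodendrocytes and the other cell types in the fall of the miR-10 arms was not tested.

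From E16 to P16, 3 of the 5 tested members were DE and lower, where 20.0% of all tested miRNAs were. miR-10a-5p fell 3.57-fold (log2 fold change -1.84, standard error 0.578, FDR 0.0230), miR-10a-3p 2.88-fold (-1.53, FDR 0.0441) and miR-10b-3p 4.15-fold (-2.05, FDR 0.0300). miR-10b-5p had -2.16 (FDR 0.0250) with overlap between the stages, because E16 replicate 4 was at 1.48 CPM. The median over the 5 members was -1.84, against 0.08 over all tested miRNAs. None of the 3 calls held without E16 replicate 2, E16 replicate 3, P16 replicate 2 or P16 replicate 3. That of miR-10a-3p was also lost without E16 replicate 4 (FDR 0.0617) and without P16 replicate 1 (FDR 0.0819), so of the E16 and P16 libraries only E16 replicate 1 could be left out. With the set as a covariate the same 3 arms were called, with FDRs of 0.00211 to 0.0233. Without set A none was called by edgeR, with log2 fold changes of -1.77 to -0.93 for the 4 arms and 104 of all 660 tested miRNAs DE. Without set C, with 1 library left at P16 and its spread taken from the other stages, none was called either, with -1.86 to -1.30 and 220 of 637, and in both settings 0 members had an unadjusted p under 0.05. Set B held 2 E16 libraries and 1 P16 library, between which the log2 differences of the 4 arms were -1.27 to -0.71. With the replicate number as a block 1 member was called, and miR-10a-3p (FDR 0.0533) and miR-10b-3p (FDR 0.0621) were not.

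Over this longer interval 286 of all 694 tested miRNAs were DE, 147 of them higher and 139 lower, and the lists are given beside these counts. All 3 tested oligodendrocyte miRNAs rose. Of the neuronal list 1 miRNA rose and 2 fell, and of the blood list 2 rose and 1 fell. Falls were called for 3 of 4 epithelial, 2 of 4 muscle, 2 of 4 mesenchymal and 4 of 4 cartilage miRNAs. Their part in the change of the miR-10 arms was not tested.

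The 3 comparisons share libraries, so their values are set side by side without a test of their agreement. By stage means, the arms ran from 2.87 to 8.46 CPM at E16, from 8.75 to 31.0 CPM at P0 and from 0.685 to 2.93 CPM at P16. At P0 the order was miR-10a-3p, miR-10b-5p, miR-615-3p, miR-10a-5p and miR-10b-3p, and neighbours among the first 4 differed by less than 1 SD. The last, miR-10b-3p, lay further off, although its range overlapped that of miR-10a-5p. At P16 the order of the miR-10 arms was miR-10a-3p, miR-10b-5p, miR-10a-5p and miR-10b-3p. There miR-10a-3p stood above every value of the other arms.

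miR-615-3p, from the HoxC cluster, measured 14.2, 29.0, 17.5 and 42.3 CPM at E16, 21.02, 21.2, 26.1 and 11.98 CPM at P0, and 22.3, 1.59 and 0.861 CPM at P16. P16 replicate 1, the only P16 library of set B, lay within the range of the earlier stages. P16 replicates 2 and 3, both of set C, lay far below it, and the third set C library, P0 replicate 4, was the lowest of the P0 libraries. By stage alone it was not DE in any of the 3 SOC comparisons by edgeR, DESeq2 or limma, and its unadjusted p by edgeR was over 0.05 in each. Its log2 fold changes at P16 were -1.64 vs E16 (standard error 0.903, FDR 0.157) and -1.28 vs P0 (standard error 0.891, FDR 0.326). With the library set as a covariate, edgeR gave -1.24 vs E16 (FDR 0.0921) and -1.54 vs P0 (FDR 0.0482), and limma by stage alone gave -2.61 vs E16 (FDR 0.0243). Those last 2 values passed the FDR and were not called because the stages overlapped.

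For miR-615-3p, the outcome changed with 1 library. Without P16 replicate 1 the log2 fold changes were -4.30 vs E16 (FDR 0.000565) and -3.95 vs P0 (FDR 0.00383), both then DE by edgeR. Without the set C libraries, which left replicate 1 alone at P16, the change vs P0 was 0.13 (FDR 0.911). Within set B its mean was 28.3 CPM at E16, 21.02 at P0 and 22.3 at P16. Within set C it was 11.98 CPM at P0 and 1.23 CPM at P16. The stage difference thus held in one set and not in the other. At P16, set and level cannot be told apart.

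The other arms of the same hairpins were near 0. In the SOC the most abundant of the 3 counted, miR-615-5p, had a mean of 0.198 CPM, and the 5p arm made up 1.22% of the counts of the miR-615 pair. The 3p arms of Mir196b and Mir196a-2 had at most a single count per SOC library. None of these arms was tested in either organ.

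Both arms of a miR-10 hairpin come from 1 precursor, so their share is free of differences in scaling between libraries. At Mir10a, with the counts as deposited, the 3p arm was the more frequent in 11 of 11 SOC libraries. The 5p arm made up 20.7% to 38.8% of the counts of the hairpin at E16, 32.2% to 44.4% at P0 and 25.0% to 32.6% at P16. The lowest of these, E16 replicate 4, had a Wilson 95% interval of 14.3% to 28.9% from 116 counts, and the highest, P0 replicate 2, 39.7% to 49.2% from 410 counts. At Mir10b the 5p arm was the more frequent in 10 of 11 libraries, with E16 replicate 4 at 42.5% (28.5% to 57.8%, 40 counts) as the exception. Its share was 42.5% to 77.2% at E16, 68.0% to 84.4% at P0 and 59.3% to 75.0% at P16. Both shares use the uncertain split of the 5p reads between the 2 miRNAs. In the summed SOC counts, Mir10a had 1097 on its 5p and 1896 on its 3p arm, and Mir10b 1440 and 574. If all miR-10b-5p counts belonged to miR-10a-5p, a limit set after the data were seen, the 5p share of Mir10a would be 57.2%, and over 50% in 7 of 11 libraries. Equal arms would take 55.5% of the miR-10b-5p counts at Mir10a and 60.1% at Mir10b. Among 357 pairs of arms with at least 100 counts in the SOC, 49.0% had a 5p share under 50%, so leaning to either arm was common.

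By stage, the mean 5p share of Mir10a with its SD was 31.0% ± 7.72 (n = 4), then 39.7% ± 5.39 (n = 4), then 27.5% ± 4.36 (n = 3). The lowest exact permutation p of the 6 comparisons of a 5p share between stages was 0.114, with an adjusted p of 0.686, for Mir10a at both P0 vs E16 and P16 vs P0. An exact test of P0 vs E16 cannot go below p = 0.0286 here, nor one that involves the 3 P16 libraries below 0.0571, and even with each comparison at this limit the adjusted p would be 0.114. These tests could therefore not pass, and they do not show that the shares stayed the same. Between E16 and P0 libraries of one replicate number, the Mir10a share was higher at P0 in 4 of 4 pairs, by 0.637 to 12.6 percentage points, and the Mir10b share in 3 of 4. The exact paired permutation p for Mir10a, a test added after the data were seen, was 0.125, the smallest that 4 pairs can give. For both hairpins the ranges at P0 and P16 overlapped.

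With the same uncertain split, miR-10a-5p was counted less often than miR-10b-5p in 10 of 11 SOC libraries. From E16 to P16 the log2 ratio averaged -0.43 ± 0.634 (SD, n = 4), then -0.30 ± 0.321 (n = 4), then -0.30 ± 0.146 (n = 3). E16 replicate 4, with 24 counts against 17, was the exception at 0.49. The lowest exact permutation p of the 3 comparisons was 0.743, and the difference between P16 and P0 was -0.00162. These tests could not pass after adjustment either, and they do not show that the ratio stayed the same. The E16 libraries alone spanned -0.95 to 0.49.

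**Figure D3:**
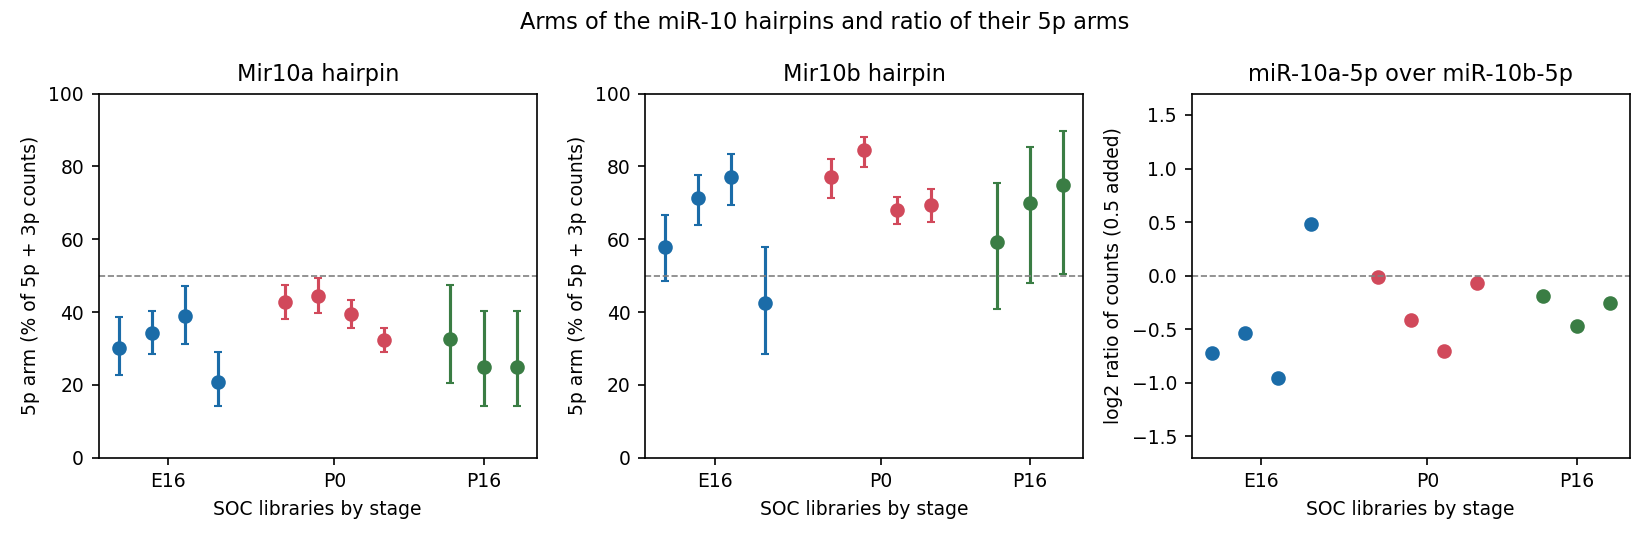
Share of the 5p arm among the counts of each miR-10 hairpin with Wilson 95% intervals (left and middle, percent) and log2 ratio of miR-10a-5p to miR-10b-5p counts with 0.5 added to each (right), with 1 point per SOC library coloured by stage. The Mir10a shares lie under 50% in 11 of 11 libraries, and the Mir10b shares above it in 10 of 11, with the 5p reads split as in the deposited counts, which is uncertain.

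By the rule of a mean of at least 100 CPM, no member was abundant enough to be matched with similar miRNAs. With a limit of 5 CPM, chosen after seeing the data, 4 members and 439 miRNAs entered. Over the 11 SOC libraries, the miRNA most like miR-10a-5p in log2 CPM was miR-10b-5p (Pearson r = 0.977), followed by miR-10a-3p (0.968) and miR-124-5p (0.944). miR-124-5p, an arm of a neuronal miRNA, was also among the 3 most like miR-10b-5p (0.941) and miR-10a-3p (0.895). Of the 6 listed neuronal miRNAs, among them miR-124-3p, edgeR called 0 at P0 vs E16 and 1, miR-137-3p, at P16 vs P0. For miR-615-3p the most like were miR-92b-3p (0.937), miR-216a-3p (0.920) and miR-301a-5p (0.909), and its r with the miR-10 arms was 0.451 to 0.612. These are descriptions over libraries that share stages and sets.

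In the cochlea, the members were at or near 0. miR-10a-3p had no count in the 10 libraries. miR-10a-5p had 1 count and miR-10b-5p 5 counts in all, all of them at E16. miR-10b-5p was counted in both E16 libraries, with 1 and 4 counts, and in none of the 8 later ones. miR-10b-3p had 1 count at E16 and 2 at P16. miR-615-3p had 1 count at E16, 0 at P0 and 4 at P16, of which 3 were in P16 replicate 2. miR-196b-5p had 0 counts in 11 SOC libraries and 3 in the cochlea, 2 in P0 replicate 2 and 1 in P16 replicate 2. In the SOC its count of 0 allows at most 0.0553, 0.0599 and 0.0965 CPM over the summed libraries of E16, P0 and P16.

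At P0, 0 of 765072 cochlea counts fell on any miR-10 arm, which allows up to 3.92 CPM over the summed libraries. In the SOC the same arms held 8.09 to 27.6 CPM of the summed P0 counts, and those shares would have given 6.19 to 21.1 counts in the cochlea. For miR-615-3p the SOC share would have given 17.3 counts, against 0 found. At P0 the depth was thus enough to show the SOC levels in the cochlea. At E16 miR-10b-5p had 5 counts against 4.05 by the SOC share, whereas miR-615-3p had 1 against 17.1 and miR-10a-3p 0 against 5.64. At P16 miR-615-3p had 4 counts against 5.59 and miR-10b-3p 2 against 0.450. The 5.59 rests mainly on SOC P16 replicate 1, which held 237 of the 261 counts of miR-615-3p at that stage, beside 15 and 9 in replicates 2 and 3. The SOC shares of the miR-10 arms at P16 would have given at most 1.91 counts, so lower levels in the cochlea were not detectable there. Organ and kit cannot be told apart in these values.

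**Figure D4:**
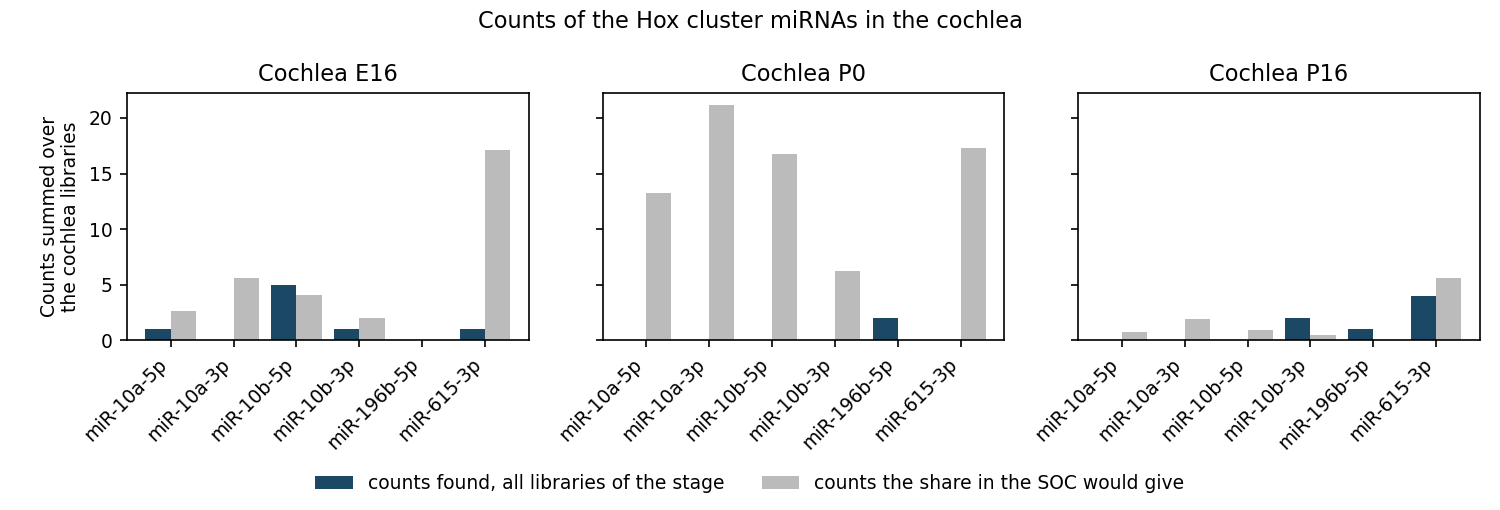
Counts of the members summed over the cochlea libraries of each stage (dark bars) beside the counts that the member's share of the SOC counts at that stage would give in the same cochlea total (grey bars). At P0 no count was found for the miR-10 arms and miR-615-3p, against 6.19 to 21.1 by the SOC shares.

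Of the members, 2 passed the cochlea filter of 1 CPM in at least 2 replicates, miR-10b-5p and miR-615-3p, and at this depth a single count passes that limit. miR-10b-5p passed through its E16 libraries alone and miR-615-3p through 2 P16 libraries alone, so the stage where each was counted most also brought it into the test, and nothing is read from the direction. By edgeR's test 0 of the 2 were DE at P0 vs E16 (24.4% of the 896 tested miRNAs were), at P16 vs E16 (29.6%) and at P16 vs P0 (10.5%). At an unadjusted p under 0.05 the counts were 1, 0 and 1. DESeq2 called 0, and its adjusted p was not given for either miRNA. limma called 0 as well, with 1, 1 and 0 at an unadjusted p under 0.05. No fold change is given, because the groups were at or near the limit of 3 counts.

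Whether the change differed between the organs was tested as an interaction of organ and stage over the 545 miRNAs tested in both, which included the same 2 members. Neither passed in any comparison by edgeR, where 11.9%, 16.9% and 6.42% of miRNAs did in the P0 vs E16, the P16 vs E16 and the P16 vs P0 comparison. At an unadjusted p under 0.05 the count was 1 in each comparison, and by DESeq2's adjusted p it was 1, 0 and 0. The cochlear side of miR-10b-5p rests on 5 counts at E16, through which it entered the test, and 0 at P0, and that of miR-615-3p on its 4 counts at P16 in the same way, so their values in this test are not read as a difference between the organs. Whether the fall of the miR-10 arms after birth differed between the organs could not be measured, since the cochlea had 0 counts of miR-10a-5p, miR-10a-3p and miR-10b-5p at both P0 and P16.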

How the data were processed

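The authors deposited raw counts per mature miRNA, without normalization, from 21 small RNA libraries. Their processing notes name Bowtie2 2.2.5 and mm10, whereas the study's methods name Bowtie and a reference made from MirGeneDB. The names in the table are those of miRBase, so which reference these counts come from is uncertain. Replicates were biological repeats according to the methods. Here, counts were fitted per organ with edgeR 4.0.16 in R 4.3.3 (TMM, quasi-likelihood F test). The ratio, with 0.5 counts added, and the 5p shares were compared by exact two-sided permutation tests (scipy). Both were adjusted over the 6 and 12 comparisons planned, of which 3 and 6, those of the SOC, had counts. Standard errors are the log2 fold change over the square root of F. The likeness rule takes the 3 miRNAs with the highest Pearson r.

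Every member is named, and the members and lists were chosen with earlier results of these data known. The lists were neuronal, oligodendrocyte, epithelial, muscle, mesenchymal, cartilage and blood miRNAs, other arms of the hairpins, and miR-10 relatives outside the clusters. The fits were also tested on simulated data, but no outcome of that is given here and no result relies on it. No library was a copy of another: over 28 pairs of one group, chi-square per degree of freedom was at least 5.95. Replicate numbers were checked for pairing by correlating deviations from the stage means. SOC pairs of one number at E16 and P0 gave r = 0.251 to 0.490 in 4 of 4, a pairing seen in the values alone. Of the 12 pairs of different numbers, 2 were over 0.1. Replicates 1, 2 and 3 each kept their library set between these stages, so pairing and set cannot be told apart for them. The main fits and permutation tests are unpaired. The pairing enters through the replicate block and the paired permutation tests, given as alternatives. With P16 not every pair was over 0.1: r was -0.601 to 0.548 with P0, with 1 of 3 over it, and -0.0903 to 0.0113 with E16. Alternatives were DESeq2, limma, other scalings, filters and call rules, all libraries in one fit, the replicate block, the library set, thinned SOC counts and leaving out each library. SOC fits without set C and the paired permutation tests were added after seeing the data.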

Additional observations from a re-analysis of the deposited data

Results flagged for a closer look

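In groups of 4 libraries, 3 of 20 sets of values had 1 library far from the rest by Dixon's test at the 5% level, where chance gives about 1 in 20 of sets of continuous values. That rate does not apply to these 3, which were in the cochlea and rest on 1 or 2 counts beside 3 libraries at 0, since any count beside such libraries meets the criterion. Of the other 17 sets, 0 met it. miR-10b-3p was at 14.9 CPM in P16 replicate 4, which is 2 counts. miR-196b-5p was at 9.74 CPM in P0 replicate 2, also 2 counts, and at 7.78 CPM in P16 replicate 2, a single count. None of the SOC values, ratios or 5p shares in groups of 4 stood apart in this way.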

How the results depend on the processing

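For the 4 miR-10 arms, 0 of 264 alternative log2 fold changes of the 12 SOC results had the opposite sign, leaving out the settings that alter the call rule alone. Where 2 stages do not overlap, leaving out a library leaves the order of their values largely fixed, so the direction is then no sign of stability. The calls changed with the setting. At P0 vs E16, where 1 member was DE in the SOC, 3 were with library totals, 3 with all 21 libraries fitted together and 2 without the criterion on overlap, and 0 without set A. Leaving out single libraries gave 0 to 4, with 0 without E16 replicates 1, 3 or 4 or P0 replicate 3. At P16 vs E16, with 3 members DE, 0 were with all libraries fitted together, 0 without set A and 0 without set C, and 0 to 3 with single libraries left out, whereas 4 were with a minimum of 10 counts and 4 without the criterion on overlap. With no filter 3 were, with miR-10b-5p in place of miR-10a-3p (edgeR FDR 0.0507). At P16 vs P0, with 4 members DE, 2 were without set A and 2 without set C, and 4 to 5 with single libraries left out. The cause was not tested, though leaving out a set also leaves fewer libraries, in the case of set C 1 at P16.

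With the replicate number as a block, 1 member was DE at P16 vs E16, and no other member's call in the SOC changed. miR-10a-5p then had a log2 fold change of 2.18 at P0 vs E16 (edgeR FDR 0.0416). Pairing by replicate number gave exact permutation p-values at P0 vs E16 of 0.125 for the Mir10a share, 0.250 for the Mir10b share and 0.625 for the ratio, a test with 4 pairs that could not reach 0.05.

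In the test between organs, where edgeR called 0 members, 1 was called at P0 vs E16 with DESeq2, 1 with library totals and 1 with the library set, miR-10b-5p each time. It had entered the test through its cochlea counts at E16 alone, a stage of that comparison, so these calls are not read as a difference between the organs. Single libraries left out gave 0 to 1 in each of the 3 comparisons, with the same limit for miR-615-3p, which entered through P16.

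miR-615-3p reversed at P0 vs E16 to 0.30 with the library set, and at P16 vs P0 to 0.13 without set C. The log2 ratio of miR-10a-5p to miR-10b-5p at P16 vs P0 was 0.00934 with 1 count added. With single libraries left out, its differences were -0.0426 to 0.437 at P0 vs E16, -0.0442 to 0.435 at P16 vs E16 and -0.135 to 0.0930 at P16 vs P0, and the Mir10b share at P16 vs E16 differed by -0.667 to 10.9 percentage points. In the ratio at P16 vs P0, values of 0.0930, 0.0761 and 0.0806 came without P0 replicate 1, P0 replicate 4 and P16 replicate 2.

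Library totals moved the median log2 fold change of all tested SOC miRNAs at P0 vs E16 from 0.17 to 0.30, and fitting all libraries together moved it at P16 vs E16 from 0.08 to 0.52. A minimum of 10 counts left no member to test in the cochlea, so that alternative gave no value there.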

Other observations

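miR-99a-5p, miR-99b-5p, miR-100-5p, miR-125a-5p and miR-125b-5p resemble miR-10 in part of their sequence and lie outside the Hox clusters. In the SOC, 0 of these 5 were DE at P0 vs E16 by edgeR, with 0 at an unadjusted p under 0.05 and 0 by DESeq2. At P16 vs E16, 3 of 5 fell (miR-99a-5p, miR-99b-5p and miR-100-5p), where 20.0% of all tested miRNAs did, and at P16 vs P0 1 fell, miR-99a-5p, where 8.07% did. Their summed level in the SOC was 60836 to 239640 CPM at E16, 44728 to 212347 at P0 and 37581 to 46432 at P16, and it was highest in the 4 set A libraries (196730 to 239640 CPM), which are defined by miR-99b-5p. Set A has no P16 library, and the part of the sets in the fall of miR-99b-5p was not tested. In the cochlea 2 of the 5, miR-125a-5p and miR-125b-5p, rose at P0 and P16 vs E16, where 70 and 98 of all 896 tested miRNAs did, and miR-125a-5p led with a mean of 283216 CPM. The cochlea libraries counted these relatives in large numbers where the Hox cluster members were near 0. miR-99b-5p has another seed than miR-10a-5p, and how well the cochlea kit captured the miR-10 arms was not tested. Organ and kit cannot be told apart here either.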
